A study of Mus musculus with 4 samples.

Results

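The genes described here are those of 2 peptide hormone systems of the islet, ghrelin and cholecystokinin (CCK). They are the hormone genes Ghrl and Cck, the ghrelin-activating enzyme gene Mboat4, the ghrelin receptor gene Ghsr and the CCK receptor genes Cckar and Cckbr. These 6 genes were taken by symbol from a table of 55536 genes, each symbol matched 1 row, and all 6 passed the filter on low counts that left 19723 genes for testing. They were chosen by name.

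The libraries were made from polyadenylated RNA of pancreatic islets of male C57BL/6 mice aged 8 weeks, with no further genotype or treatment of the animals in the labels. There were 2 non-depleted and 2 insulin-depleted libraries. In the second kind, sequences of the insulin genes Ins1 and Ins2 were removed during library preparation with a commercial RNA depletion panel, so that the groups differ in how libraries were made and not in how animals were treated. The labels name the libraries of a group as biological replicates, but do not say whether each came from a separate animal or whether libraries with the same number share islets. P-values therefore measure the spread between these libraries, which may be technical. Libraries of the same number deviated alike from their group means (Pearson r of 0.845 across 11554 genes), which the fit on group alone does not use. In the count table, only the columns of non-depleted libraries bear a mark for size selection in their names, which the labels do not mention, and the group difference cannot be told apart from it. Where 4 values are given in the fixed order of libraries, they belong to non-depleted replicate 1, non-depleted replicate 2, insulin-depleted replicate 1 and insulin-depleted replicate 2.

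Ghrelin is made in the stomach and, in the islet, by the rare epsilon cells. It activates its receptor, a G-protein-coupled receptor, after a fatty acid is attached to it by the enzyme that Mboat4 encodes, ghrelin O-acyltransferase. In mouse islets the ghrelin receptor is known from somatostatin-secreting delta cells. CCK is made by endocrine cells of the small intestine and by neurons, and beta cells can make it under metabolic stress. The receptor encoded by Cckar prefers sulfated CCK and is known from pancreatic acinar cells of rodents, while the one encoded by Cckbr also binds gastrin and is abundant in brain.

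Counts without Ins1 and Ins2 summed to between 19278430 and 64858544 per library, the lowest in insulin-depleted replicate 1. Levels below are CPM, that is, counts rescaled so that this sum is the same in each library, so that the removal of insulin does not by itself raise them. Insulin took 4.14% and 3.97% of counts in the non-depleted libraries and 0.195% and 0.264% in the insulin-depleted ones. A limit of 3 counts corresponded to 0.0463 to 0.156 CPM. Intervals on single libraries are exact Poisson intervals at 95% and cover counting error only. Of the 24 counts of these genes, 16 were even, and over all genes 80.01 to 84.01% of counts from 2 to 9 were even. If each fragment added 2 counts, the intervals are too narrow.

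The hormone transcripts are short. The coding sequence of Ghrl transcript Ghrl-201 has 354 bases and that of Cck transcript Cck-201 has 348 bases, each held by 2 annotated transcripts of its gene. The first 300 bases of each are printed 5′ to 3′ because these are the messages whose level is compared between libraries with and without removal of insulin sequence. Capitals mark the longest stretches shared with an Ins1 or Ins2 transcript on either strand. In Ghrl these are 6 stretches of 10 bases, the first at positions 103 to 112 of the coding sequence and the last beyond the printed part, and in Cck 1 stretch of 9 bases at positions 34 to 42.
Ghrl: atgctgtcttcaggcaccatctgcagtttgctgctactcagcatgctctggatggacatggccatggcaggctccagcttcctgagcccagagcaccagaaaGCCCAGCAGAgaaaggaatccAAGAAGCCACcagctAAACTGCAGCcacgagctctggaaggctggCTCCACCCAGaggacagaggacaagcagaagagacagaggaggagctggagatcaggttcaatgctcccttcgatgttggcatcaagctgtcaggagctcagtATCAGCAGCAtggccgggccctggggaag
Cck: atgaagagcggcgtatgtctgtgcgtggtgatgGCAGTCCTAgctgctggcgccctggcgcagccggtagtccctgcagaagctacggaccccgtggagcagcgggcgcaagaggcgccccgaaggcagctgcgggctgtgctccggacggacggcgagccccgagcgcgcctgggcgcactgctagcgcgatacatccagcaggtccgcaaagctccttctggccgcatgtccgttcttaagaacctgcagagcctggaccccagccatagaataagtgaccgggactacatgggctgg

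Over whole transcripts, UTRs included, the longest stretch shared with insulin was 10 to 12 bases in the 6 genes. Of each gene 1 such stretch is printed, also where several had that length (10 in Ghrl, 7 in Cckar and 2 in Cckbr), with up to 8 bases on either side, and capitals mark the shared stretch. The printed ones of Cck and Cckbr had the same sense as insulin RNA, and those of Ghrl, Mboat4, Ghsr and Cckar were its reverse complement. Only exact matches were searched, and whether the depletion panel acts on such stretches was not tested.
Ghrl: agctcagtATCAGCAGCAtggccggg
Mboat4: gatctggaTATAGAACTCTTagctcctc
Ghsr: atagccaaGCGGGACTTGGGaggaggca
Cck: cagcgtctTGGCCCTGCTTGgaggaggt
Cckar: tttactaaAAACAATAACCagacggcg
Cckbr: cagcgccgCGGGAGCAGGTGgaaccggt
Of 14969 other tested protein-coding genes, the median longest stretch was also 12 bases, and 79.9% had one of 12 bases or more. The sequences that the depletion panel targets are not given in the labels. All sequences are from the GENCODE M21 transcripts of the mouse build GRCm38.

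The ghrelin receptor gene had the highest count of the 6 genes in every library and the most even levels. Ghsr (ENSMUSG00000051136, chromosome 3, 27371351 to 27378010, plus strand, GRCm38) had 10.5 CPM in non-depleted replicate 1, 13.0 CPM in non-depleted replicate 2, 11.4 CPM in insulin-depleted replicate 1 and 11.7 CPM in insulin-depleted replicate 2, from 220 to 759 counts. Both insulin-depleted values lay between the non-depleted ones. Group means were 11.8 ± 1.74 CPM without depletion and 11.6 ± 0.206 CPM with it (SD, n = 2 each). The log2 fold change of Ghsr was -0.03 (SE 0.15, 95% interval -0.40 to 0.34, edgeR quasi-likelihood test, adjusted p = 1.00). Counts are per gene, so full-length and truncated receptor messages are not separated, and only 1 transcript of Ghsr is annotated in this release.

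Delta-cell transcripts were abundant in all 4 libraries. The somatostatin gene Sst had 527, 665, 532 and 658 CPM in the fixed order of libraries. All 3 delta-cell markers (Sst, Hhex and Rbp4) had counts in every library, with a summed level of 606 to 744 CPM without and 609 to 738 CPM with depletion. Per exon length, Sst exceeded Ghsr 287- to 345-fold. This narrow range is not particular to delta-cell genes. The endothelial gene Pecam1 kept about as narrow a ratio to Ghsr, with 170, 198, 171 and 199 CPM in the fixed order. In bulk RNA, fewer cells of a type and less RNA per cell cannot be told apart.

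The ghrelin gene itself differed far more between the libraries of each group than between groups. Ghrl (ENSMUSG00000064177, chromosome 6, 113716119 to 113719880, minus strand) had 65 counts or 1.34 CPM (interval 1.03 to 1.71) in non-depleted replicate 1 and 189 counts or 3.25 CPM (2.80 to 3.75) in non-depleted replicate 2. In insulin-depleted replicate 1 it had 18 counts or 0.934 CPM (0.553 to 1.48), and in insulin-depleted replicate 2 it had 203 counts or 3.13 CPM (2.71 to 3.59). The libraries numbered 2 were thus the high ones in both groups, and the groups overlapped.

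Between the libraries of a group, Ghrl differed 2.43-fold without and 3.35-fold with depletion, and these counting intervals did not overlap. They did not overlap either when each interval was computed on pairs of counts, at 0.919 to 1.89 against 2.63 to 3.98 CPM without and 0.427 to 1.77 against 2.55 to 3.80 CPM with depletion. Between libraries of the same number, the insulin-depleted level was 0.697 and 0.963 times the non-depleted one. Group means were 2.30 ± 1.35 CPM without depletion and 2.03 ± 1.55 CPM with it (SD, n = 2 each). The log2 fold change of Ghrl was -0.11 (SE 0.64, 95% interval -1.71 to 1.48, edgeR, adjusted p = 1.00). Its sign depended on single libraries: the log2 fold change was 0.65 without non-depleted replicate 2, 0.43 without insulin-depleted replicate 1, -0.60 without non-depleted replicate 1 and -1.29 without insulin-depleted replicate 2.

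An annotated antisense gene, Gm26982, shares 3 bases with the end of Ghrl, and a second gene on the opposite strand, Gm44033, lies wholly within it over 695 bases. Gm44033 had 33, 33, 2 and 27 counts in the fixed order of libraries. No source used here says whether counting used strand, and without it reads of Ghrl and of these genes cannot be told apart where they overlap.

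Markers of the stomach lining and the intestine, where cells that make ghrelin and CCK also lie, were looked at beside Ghrl. Of 8 stomach-lining markers, Gkn1, Gkn2, Atp4b and Gif had 0 counts in all 4 libraries, and only Atp4a had counts in every library, at 1.35 to 2.46 CPM. These are markers of pit, parietal and chief cells and not of gastric endocrine cells, and the part of stomach RNA in the level of Ghrl was not tested. The summed level of the 8 was 2.14 and 2.49 CPM without and 1.45 and 1.77 CPM with depletion. Of 6 intestinal-lining markers, Fabp2 and Cdx1 had 0 counts in all libraries and Cdx2 had counts only in insulin-depleted replicate 1, while Vil1, the most abundant, had 47.5 to 56.6 CPM. The summed level of these 6, most of it from Vil1, was 57.2 and 64.9 CPM without and 55.5 and 65.7 CPM with depletion. The part of intestinal RNA in the levels of Ghrl and Cck was not tested.

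**Figure D1:**
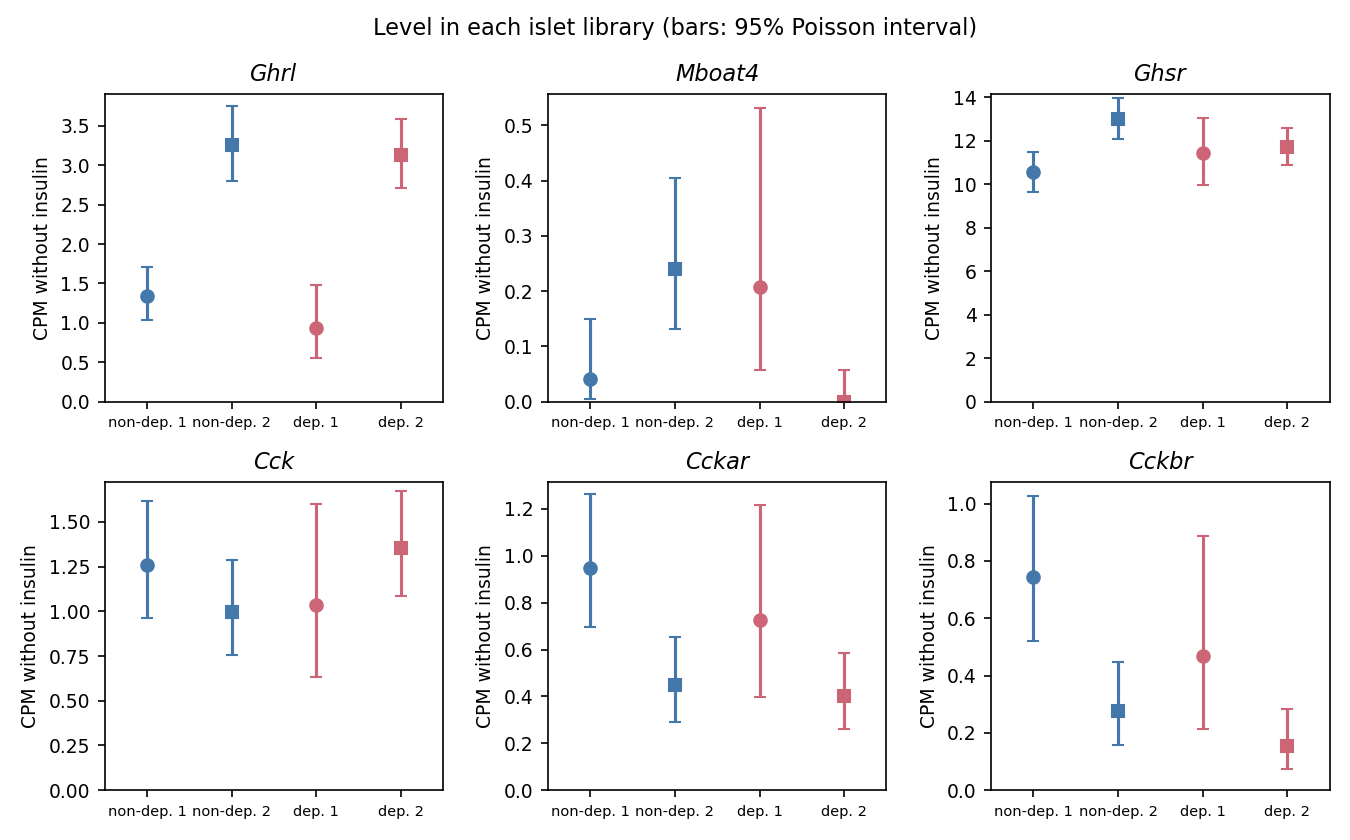
Level of each of the 6 genes in CPM without insulin (vertical axis, starting at 0) in the 4 libraries (horizontal axis; dep. stands for insulin-depleted), with 95% Poisson intervals as bars, blue for non-depleted and red for insulin-depleted libraries, circles for replicate 1 and squares for replicate 2. Ghrl was near 1 CPM in the libraries numbered 1 (1.34 and 0.934) and near 3 CPM in those numbered 2 (3.25 and 3.13), while Ghsr stayed between 10.5 and 13.0 CPM.

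The acyltransferase gene of ghrelin was near or below the limit of 3 counts in all libraries but non-depleted replicate 2, where it was above. Mboat4 (ENSMUSG00000071113, chromosome 8, 34115030 to 34125182, plus strand) had 2 and 14 counts in non-depleted replicates 1 and 2 and 4 and 0 counts in insulin-depleted replicates 1 and 2. These correspond to 0.0412 CPM (interval 0.00499 to 0.149), 0.241 CPM (0.132 to 0.404), 0.207 CPM (0.0565 to 0.531) and 0 CPM (0 to 0.0569). The groups overlapped, with no order between them. Mboat4 passed the filter on low counts, and its log2 fold change was -1.16 with an SE of 1.74 (95% interval -5.50 to 3.19, edgeR, adjusted p = 1.00). The value was 0.52 without insulin-depleted replicate 2, the library with no count, and -6.07 without insulin-depleted replicate 1. The latter sets the non-depleted libraries against that count of 0 and is no measure of size. Without non-depleted replicate 1 it was -1.74, and without non-depleted replicate 2 the gene did not pass the filter. The antisense gene Gm39158, which lies within Mboat4, had 0 counts in all libraries.

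Set against Mboat4, Ghrl had the higher level per exon length. The ratio of Ghrl to Mboat4 was 55.3 in non-depleted replicate 1 (95% counting interval 14.7 to 466, from 2 counts of Mboat4), 23.0 in non-depleted replicate 2 (13.4 to 42.8) and 7.66 in insulin-depleted replicate 1 (2.52 to 31.1). In insulin-depleted replicate 2, with 0 counts of Mboat4, it was 115 with Mboat4 set to 3 counts, taken as a lower bound. With Mboat4 set to 3 counts in the same way, the ratio in non-depleted replicate 1 was 36.9. The intervals are exact binomial ones and cover counting error only.

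The cholecystokinin gene had a low level that was similar in the 4 libraries. Cck (ENSMUSG00000032532, chromosome 9, 121489824 to 121495694, minus strand) had 61 counts or 1.26 CPM (interval 0.962 to 1.62) in non-depleted replicate 1 and 58 counts or 0.998 CPM (0.758 to 1.29) in non-depleted replicate 2. It had 20 counts or 1.04 CPM (0.634 to 1.60) in insulin-depleted replicate 1 and 88 counts or 1.36 CPM (1.09 to 1.67) in insulin-depleted replicate 2. All 4 intervals overlapped, and no group or replicate number stood apart.

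Group means of Cck were 1.13 ± 0.184 CPM without depletion and 1.20 ± 0.226 CPM with it (SD, n = 2 each). The log2 fold change of Cck was 0.10 (SE 0.33, 95% interval -0.73 to 0.93, edgeR, adjusted p = 1.00). It was the only one of the 6 genes with a log2 fold change above 0, and the sign turned without non-depleted replicate 2 (-0.07) or without insulin-depleted replicate 2 (-0.11). Without non-depleted replicate 1 the value was 0.29 and without insulin-depleted replicate 1 it was 0.25.

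Both CCK receptor genes had fewer counts than Cck in every library, and were higher in the library numbered 1 of each group. Cckar (ENSMUSG00000029193, chromosome 5, 53697776 to 53707705, minus strand) had 46 counts or 0.948 CPM (interval 0.694 to 1.26) and 26 counts or 0.447 CPM (0.292 to 0.655) in non-depleted replicates 1 and 2. It had 14 counts or 0.726 CPM (0.397 to 1.22) and 26 counts or 0.401 CPM (0.262 to 0.587) in insulin-depleted replicates 1 and 2. The groups overlapped. Only the non-depleted pair had counting intervals that did not overlap, and on pairs of counts it overlapped too (0.601 to 1.42 and 0.238 to 0.765 CPM).

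The log2 fold change of Cckar was -0.38 (SE 0.58, 95% interval -1.84 to 1.08, edgeR, adjusted p = 1.00). Group means were 0.698 ± 0.354 CPM without depletion and 0.564 ± 0.230 CPM with it (SD, n = 2 each). The sign turned without non-depleted replicate 1 (0.28) or without insulin-depleted replicate 2 (0.07). Without non-depleted replicate 2 it was -0.83 and without insulin-depleted replicate 1 it was -0.80.

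Most acinar markers were higher in the same libraries as Cckar. The 10 acinar markers, all with counts in every library, summed to 13384, 5551, 13411 and 5562 CPM in the fixed order of libraries, a ratio of 2.41 in both groups. Of the 10, 8 were higher in the library numbered 1 in both groups, Bhlha15 was lower there in both, and Rbpjl differed in direction between the groups (1.03, 0.619, 0.726 and 0.802 CPM). Cckar was 2.12-fold higher in non-depleted replicate 1 than in replicate 2, and 1.81-fold higher in insulin-depleted replicate 1 than in replicate 2. Of the markers, Pnlip, a pancreatic lipase, had 2676, 1013, 2713 and 1017 CPM, and the transcription factor gene Bhlha15 had 22.7, 33.2, 25.7 and 33.0 CPM. The direction was not particular to acinar markers. The summed alpha-cell, beta-cell, duct-cell and neuronal markers and the pancreatic polypeptide gene Ppy were also higher in the libraries numbered 1, by 1.01- to 1.43-fold. The part of acinar RNA in the level of Cckar was not tested.

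Cckbr (ENSMUSG00000030898, chromosome 7, 105425731 to 105470898, plus strand) had 36 counts or 0.742 CPM (interval 0.520 to 1.03) and 16 counts or 0.275 CPM (0.157 to 0.447) in non-depleted replicates 1 and 2. It had 9 counts or 0.467 CPM (0.213 to 0.886) and 10 counts or 0.154 CPM (0.0739 to 0.284) in insulin-depleted replicates 1 and 2. The libraries numbered 1 were 2.696-fold and 3.03-fold higher than those numbered 2, and the groups overlapped. The interval of insulin-depleted replicate 1 overlapped that of replicate 2. That of non-depleted replicate 1 did not, except on pairs of counts (0.440 to 1.17 and 0.119 to 0.542 CPM). The summed acinar markers were higher in the same libraries, as were, by less, the other marker lists named for Cckar. The part of any of these cells in the level of Cckbr was not tested.

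Group means of Cckbr were 0.509 ± 0.330 CPM without depletion and 0.311 ± 0.221 CPM with it (SD, n = 2 each). The log2 fold change of Cckbr was -0.89 (SE 0.82, 95% interval -2.95 to 1.17, edgeR, adjusted p = 1.00). In libraries of the same number the insulin-depleted level was 0.629 and 0.560 times the non-depleted one. The value was 0.06 without non-depleted replicate 1, -0.11 without insulin-depleted replicate 2, -1.42 without non-depleted replicate 2 and -1.71 without insulin-depleted replicate 1. Neuronal transcripts, another known source of Cckbr, were present: the 4 markers summed to 102 and 100.3 CPM without and 105 and 101 CPM with depletion, led by Elavl4. The Schwann-cell markers summed to 19.4 and 22.4 CPM without and 19.6 and 21.6 CPM with depletion.

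**Figure D2:**
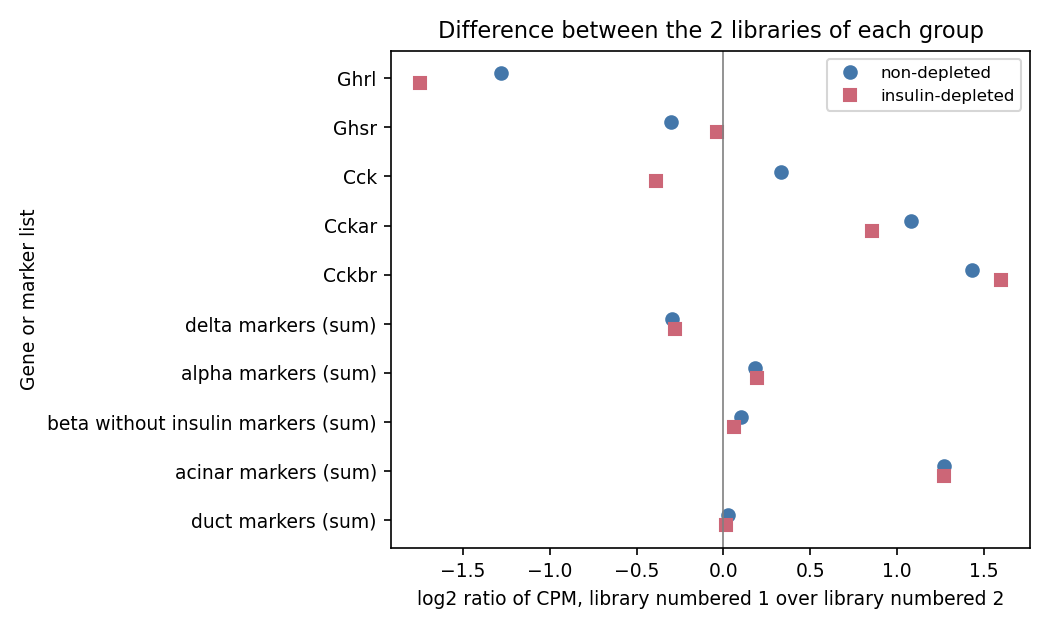
Log2 ratio of CPM in the library numbered 1 over the library numbered 2 of each group (horizontal axis), for 5 of the genes and the summed CPM of marker lists (vertical axis), with blue circles for non-depleted and red squares for insulin-depleted libraries; Mboat4 is left out because of a count of 0. Ghrl lies to the left in both groups, and Cckar, Cckbr and the acinar markers lie to the right in both. The alpha, beta and duct markers also lie to the right in both, nearer to 0.

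The comparison of ligands with receptors was made per exon length, as CPM per kilobase of annotated exon. The mean level over the 4 libraries was 2.63 ± 0.229 for Ghsr, 2.01 ± 1.11 for Ghrl, 0.891 ± 0.132 for Cck, 0.171 ± 0.0695 for Cckar, 0.143 ± 0.0896 for Cckbr and 0.0667 ± 0.0651 for Mboat4 (CPM per kilobase, SD, n = 4 libraries of both groups). In this order, the values of Cck (0.765 to 1.04) and Cckar (0.109 to 0.258) did not overlap. All other neighbours in the order overlapped. Among 14983 tested protein-coding genes, 35.4% had a lower level per length than Ghsr, 31.4% a lower one than Ghrl and 21.6% a lower one than Cck. For Cckar, Cckbr and Mboat4 the shares were 7.92%, 6.65% and 2.26%.

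The ratio of ligand to receptor message was lower for ghrelin than for CCK in all 4 libraries. The ratio of Ghrl to Ghsr per length was 0.523 and 1.03 in non-depleted replicates 1 and 2 and 0.336 and 1.10 in insulin-depleted replicates 1 and 2, so that the receptor message ranged from 0.910 to 2.97 times the ligand message. The high ratios were those of the libraries numbered 2, where Ghrl was high. Group means of this ratio were 0.776 ± 0.358 without and 0.717 ± 0.539 with depletion (SD, n = 2 each), with an exact two-sided permutation test on log2 ratios giving p = 1.00. With 2 against 2 libraries this test cannot go below 0.333, so it cannot reach 0.05.

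For CCK the ligand message exceeded each receptor message in all 4 libraries. The ratio of Cck to Cckar per length was 3.74 and 6.29 in non-depleted replicates 1 and 2 and 4.03 and 9.55 in insulin-depleted replicates 1 and 2. Group means were 5.02 ± 1.80 without and 6.79 ± 3.90 with depletion (SD, n = 2 each), with an exact two-sided permutation p of 0.667. The ratio of Cck to Cckbr was 3.72 and 7.95 without and 4.87 and 19.3 with depletion, with means of 5.83 ± 2.99 and 12.1 ± 10.2 (SD, n = 2 each), with an exact two-sided permutation p of 0.667. The highest of these ratios, in insulin-depleted replicate 2, rests on 10 counts of Cckbr. The 2 receptor genes were close to each other, with Cckar at 0.993 and 1.26 times Cckbr in the non-depleted and 1.21 and 2.02 times in the insulin-depleted libraries.

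Between the hormones, Ghrl exceeded Cck per kilobase of the union of exons, by 1.29 and 3.94 times in non-depleted replicates 1 and 2 and by 1.09 and 2.79 times in insulin-depleted replicates 1 and 2. This order depended on the length used: with the longest annotated transcript of each gene, the ratio was 0.956 and 0.807 in the libraries numbered 1 and 2.92 and 2.07 in those numbered 2, without and with depletion. The main islet hormones were orders of magnitude higher: the level per kilobase was 826 ± 106 for Sst and 4553 ± 913 for the pancreatic polypeptide gene Ppy (CPM per kilobase, SD, n = 4 libraries).

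**Figure D3:**
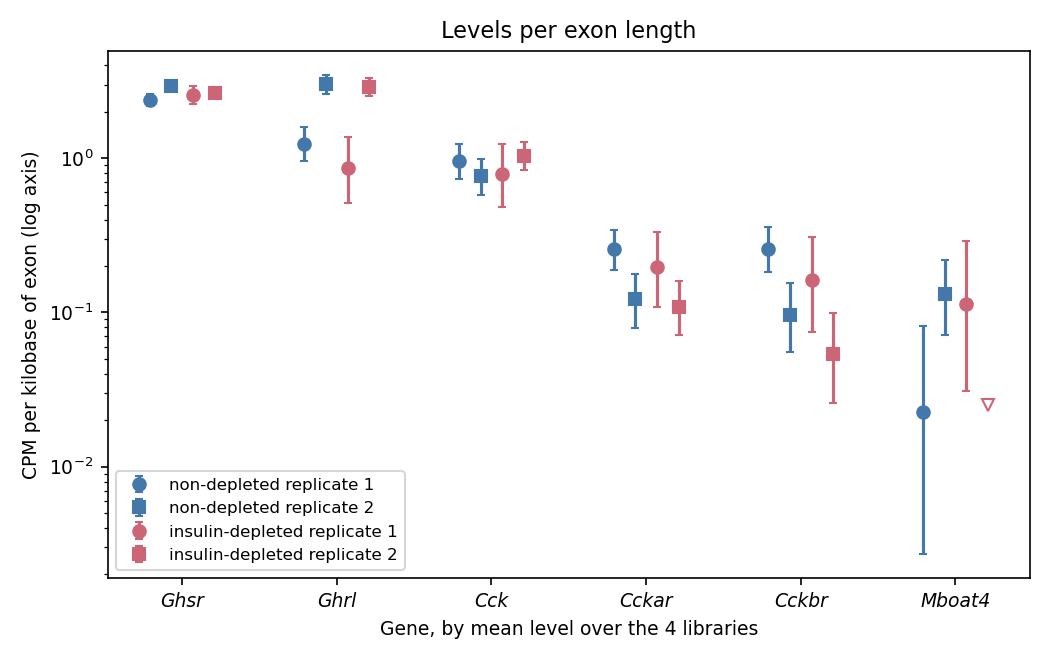
CPM per kilobase of exon (vertical log axis) of the 6 genes in order of their mean (horizontal axis), for each library, with 95% Poisson intervals as bars; the open triangle marks the limit of 3 counts for Mboat4 in insulin-depleted replicate 2, where it had 0 counts. Ghsr and Ghrl lead at means of 2.63 and 2.01, and Cck (0.891) lies above both of its receptor genes.

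Over the contrast as a whole, no gene of the 6 passed the test of insulin-depleted against non-depleted libraries. Of all 19723 genes tested, 0.0101% were called in either direction (edgeR, adjusted p under 0.05), namely Ins1 and Ins2, and of the 6 genes 0 were. At an unadjusted p under 0.05 the count was also 0 of 6 in edgeR, in DESeq2 and in limma-voom. Over all 19723 genes tested it was 82, 27 and 120, in that order. A count of 0 among few genes therefore says little, here and for the gene lists below. The median log2 fold change of the 6 was -0.25, with 1 above and 5 below 0, and that of all genes tested was -0.0025. For 0 of the 6 did both insulin-depleted libraries lie above or below both non-depleted ones, against 10.2% of other tested genes above and 9.33% below. The SE was 0.15 for Ghsr, 0.33 for Cck and 0.58 to 1.74 for the rest.

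Of 7 genes that process and control ghrelin, 6 were tested, of which 4 lay above and 2 below 0, and 0 passed (edgeR, also 0 at an unadjusted p under 0.05 there and in DESeq2 and limma-voom), with a median of 0.03 and a range of -0.37 to 0.57. The prohormone convertase gene Pcsk1, whose product cuts proghrelin, had 341 CPM without and 349 CPM with depletion (log2 fold change 0.03, SE 0.15). Nucb2, which encodes the precursor of nesfatin-1, had a log2 fold change of 0.02 (SE 0.09), and the protease gene Furin had -0.03 (SE 0.07). Mrap2, an accessory protein of the ghrelin receptor, had 0.989, 0.723, 1.66 and 0.971 CPM in the fixed order of libraries (log2 fold change 0.57, SE 0.42). Leap2, which encodes an antagonist of the receptor, had 2 counts in non-depleted replicate 1 and 0 in the other libraries.

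Of 8 genes of CCK processing and related ligands, 6 were tested, 3 lay above and 3 below 0, and 0 passed (edgeR, also 0 at an unadjusted p under 0.05 there and in DESeq2 and limma-voom). The median was 0.01 and the range -0.55 to 0.10. The lowest value was that of Sctr (SE 0.46), a receptor gene on this list that is neither a processing gene nor a ligand gene. Cpe, the carboxypeptidase of prohormone trimming, had 3181 CPM without and 3219 CPM with depletion (log2 fold change 0.01, SE 0.09). The convertase gene Pcsk2 had a log2 fold change of 0.02 (SE 0.08) and Pam, whose product amidates CCK, had -0.0026 (SE 0.09). The genes of the enzymes that sulfate CCK, Tpst1 and Tpst2, had log2 fold changes of -0.0010 and 0.10. Gast, the gene of gastrin, the other ligand of the receptor encoded by Cckbr, had 2 counts in each of the 4 libraries, below the limit of 3 counts.

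Below both receptor families, Gq/11 proteins activate phospholipase C beta, calcium release and protein kinase C. Of 15 genes of this route, 14 were tested, 5 lay above and 9 below 0, and 0 passed (edgeR, also 0 at an unadjusted p under 0.05 there and in DESeq2 and limma-voom). The median was -0.01 and the range -0.27 to 0.03. Gnaq had 244 CPM without and 237 CPM with depletion (log2 fold change -0.05, SE 0.08). The protein kinase C gene Prkca had a log2 fold change of -0.00022 (SE 0.07) and the calcium release channel gene Itpr3 had -0.0082 (SE 0.16). The 3 most abundant genes of each list, 9 in all, had far more counts than the receptors and the hormones, and SEs of 0.07 to 0.16.

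**Figure D4:**
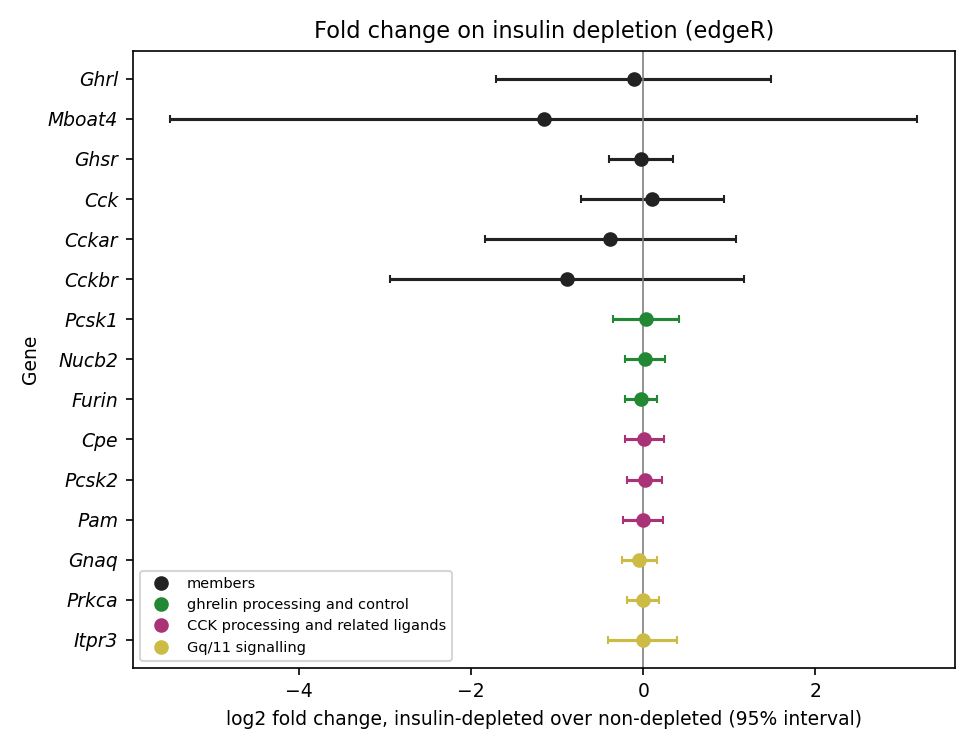
Log2 fold change of insulin-depleted over non-depleted libraries (horizontal axis) with 95% intervals from edgeR as bars, for the 6 genes (black) and the 3 most abundant genes of each of the 3 lists (vertical axis). Every interval crosses 0, and the 4 widest are those of Mboat4, Cckbr, Ghrl and Cckar.

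Likeness of pattern was measured for genes with at least 20 counts in each library, Ghsr and Cck, as the distance between log2 CPM profiles centred on their mean over the 4 libraries. Among 14799 tested genes averaging 1 CPM or more, the nearest to Ghsr were Rhobtb2 (distance 0.016), Zfp420 (0.017) and Trmt12 (0.024). Those nearest to Cck were Ccdc32 (0.029), A330035P11Rik (0.037) and Hyls1 (0.039). The measure rests on 4 libraries and says little where levels are even: 3985 genes lay within a distance of 0.2 from Ghsr and 609 within that of Cck.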

How the data were processed

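Gene counts of bulk RNA sequencing from 4 islet libraries were used, 2 non-depleted and 2 insulin-depleted. The authors deposited 1 table of raw counts as whole numbers, without normalization. The deposited non-depleted columns are entered under expected counts in the record of units, since a check on names misread the word size in them, and rounding changed nothing. Their libraries were identified from the absence of a depletion tag and from the final number. Cutadapt 4.8, STAR 2.7.11b and the builds GRCm38 and mm10 appear, with no role stated, per the submitters' processing notes. Which program counted reads, whether by strand, and how it dealt with multiple matches is not given in the sources used here. All 55536 identifiers and symbols matched GENCODE M21.

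Levels are CPM, counts scaled to a fixed library total without Ins1 and Ins2. Comparisons between genes used CPM per kilobase of the union of annotated exons. Counts of all genes were fitted with edgeR 4.0.16 in R 4.3.3 on group alone (filterByExpr, TMM, estimateDisp, glmQLFit with robust, glmQLFTest), with Benjamini-Hochberg adjustment of p over all genes tested and a threshold of 0.05. SEs and 95% intervals of log2 fold changes were taken from the test statistic and its moderated degrees of freedom. DESeq2 1.42.0, limma-voom (limma 3.58.1), other scalings, no filter, a replicate term, counts divided by 2 and leaving out single libraries were alternatives. The edgeR step was tested on simulated data. For ratios, an exact two-sided permutation test of SciPy 1.17.1 was used.

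All 6 genes are described. From each list of processing and signalling genes, the 3 of highest mean CPM are named. Mrap2, Leap2, Tpst1, Tpst2, Gast and Sctr were added after their values were seen. Most alike genes are the 3 of smallest distance (log2 of CPM plus 0.5). The genes, lists and tests were chosen with earlier results of these data known. Marker lists covered delta, alpha, beta, gamma, acinar, duct, stomach-lining, intestinal-lining, Schwann, neuronal, endothelial and immune cells.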

Additional observations from a re-analysis of the deposited data

How the results depend on the processing

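No call on the 6 genes or on the 9 named processing and signalling genes changed under any alternative run: adjusted p ranged from 0.999 to 1.00 over 163 values, with 0 under 0.05. With the replicate term, 1 of the 14 tested genes of the Gq/11 list had an unadjusted edgeR p under 0.05 (Plcb3, log2 fold change -0.15, adjusted p 0.999). Of the 6 genes 0 did, and of all 19723 genes tested 853 did, so these counts say little about either set. Unadjusted p of fits with 1 library in a group are not given, since the spread of that group is not measured there. Their log2 fold changes include -6.07 for Mboat4 without insulin-depleted replicate 1 and -0.48 for Itpr2 without insulin-depleted replicate 2. The number of genes called was 2 in all alternatives but one, also without each library in turn (2 to 2). With a replicate block, that is with a term for the replicate number, 9 genes were called and none of the 6 was among them. Under it the log2 fold changes were -0.20 for Ghrl (95% interval -0.70 to 0.30, narrower than on group alone), -0.04 for Ghsr, 0.14 for Cck, -0.27 for Cckar, -0.75 for Cckbr and -1.26 for Mboat4. Across 11554 genes averaging 5 CPM or more, deviations from the group means of libraries with the same number had a Pearson r of 0.845, with genes not being independent replicates. The labels do not state that a number marks shared islets.

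Signs near 0 turned in places. Leaving out each library in turn gave log2 fold changes of -1.29 to 0.65 for Ghrl, -6.07 to 0.52 for Mboat4, -0.16 to 0.12 for Ghsr, -0.11 to 0.29 for Cck, -0.83 to 0.28 for Cckar and -1.71 to 0.061 for Cckbr. It gave -0.14 to 0.19 for Pcsk1, -0.057 to 0.10 for Nucb2, -0.054 to 0.0051 for Furin, -0.037 to 0.061 for Cpe, -0.012 to 0.050 for Pcsk2, -0.065 to 0.067 for Pam, -0.11 to 0.011 for Gnaq, -0.027 to 0.031 for Prkca and -0.18 to 0.19 for Itpr3. In these fits the lone library of a group is assumed to vary like those of the other group. With limma-voom the value was 0.053 for Ghrl, 0.00019 for Pam, 0.00061 for Prkca and 0.010 for Itpr3. With library totals it was 0.0010 for Pam and 0.0035 for Prkca, and for Prkca it was 0.0019 with DESeq2 or its size factors and 0.00033 with counts divided by 2. The cause of these turns was not tested. With counts divided by 2, Mboat4 did not pass the filter.

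Without length scaling, the mean ratio over 4 libraries was 0.182 for Ghrl to Ghsr, 2.09 for Cck to Cckar and 4.09 for Cck to Cckbr, against 0.747, 5.90 and 8.96 per length, since the receptor genes have longer exons. With the longest transcript of each gene the ratios were 0.904, 8.46 and 13.2. Leaving out each library gave 0.629 to 0.883, 4.69 to 6.62 and, for Cck to Cckbr, 5.51 to 10.7. Counts under 50 in every library limit Cckar, Cckbr and Mboat4.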

Other observations

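Summed levels of the remaining marker lists are given as values, in the order non-depleted replicate 1, non-depleted replicate 2, insulin-depleted replicate 1, insulin-depleted replicate 2. The 4 alpha-cell markers summed to 13134, 11584, 13024 and 11404 CPM, and the 5 beta-cell markers other than insulin to 19566, 18261, 19248 and 18408 CPM. The gamma-cell gene Ppy had 2721, 1905, 2619 and 1862 CPM. The 6 duct-cell markers summed to 1188, 1164, 1170 and 1155 CPM, the 3 endothelial markers to 546, 609, 558 and 608 CPM, and the 3 immune markers to 35.1, 37.1, 28.4 and 38.7 CPM. In none of these 6 lists did the 2 libraries of a group differ as much as Ghrl did. The summed acinar markers given above differed 2.41-fold in both groups, close to the 2.43-fold of Ghrl without depletion. They were higher in the libraries numbered 1, and Ghrl in those numbered 2.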
